A study of Mus musculus with 60 samples.

Results

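The 33 transcripts described here are markers of the enteric nervous system: 27 genes of enteric neurons and 6 genes of enteric glia. They were taken by gene symbol from the 27179 genes counted in mouse colon, and all 33 passed the filter on low counts that left 18057 genes for testing. The study set colon of mice with collagen-induced arthritis (CIA), a model of inflammatory joint disease, beside colon of naïve mice over 1 day. All mice were male DBA/1, 9 to 10 weeks old when the experiment began. The CIA mice received bovine type II collagen in Complete Freund's adjuvant in the skin and a collagen boost on day 21, and their colon was taken 7 days after joint symptoms appeared. The naïve mice shared cages with them and were sampled at the same hours. Samples came at zeitgeber times ZT0 (lights on), ZT4, ZT8, ZT12 (lights off), ZT16 and ZT20, with 5 libraries at each time point in each treatment, 60 in all. Mice given adjuvant alone are not part of the comparison.

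The enteric nervous system lies within the gut wall, with one plexus between the muscle layers that drives movement and another beneath the mucosa that governs secretion and blood flow. Neurons of both plexuses descend from neural crest cells that need the receptor Ret and the transcription factors Sox10 and Hand2, while glia keep Sox10 and S100b. Each library was made from a 5 mm piece of whole mid-colon, so that neurons and glia share the sample with epithelium, smooth muscle and other cells. In such tissue, fewer cells of a type and less RNA per cell cannot be told apart.

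Total counts ranged from 25840200 to 61426000 per library in naïve mice and from 31382700 to 57564500 in CIA mice. No pair of libraries agreed within sampling noise, and the labels name no sequencing batch. Library numbers in the labels run through all CIA libraries and then all naïve ones, in order of time point. Whether they follow the order of processing is not stated. An effect of such an order could not be told apart from treatment. When 17.6% of all genes tested were higher in CIA mice and 20.4% lower, all 20 genes of a smooth muscle list were higher. Their mean log2 CPM (counts scaled by library size, with edgeR), the smooth muscle score, was 9.52 ± 0.402 in CIA and 8.82 ± 0.453 in naïve libraries (SD, n = 30). Markers of mesothelium were higher for 4 of 6 genes, whereas enteroendocrine markers were lower for 6 of 10, T and NK cell markers for 5 of 8 and interferon-stimulated genes for 8 of 10. Their part in the results below was not tested, except for smooth muscle. Naive ZT4 replicate 1 held the lowest level of 24 of the 27 neuron genes, with a mean of 2.19 log2 CPM at a smooth muscle score of 7.91, and CIA ZT8 replicate 5 held the highest level of 23.

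The defining genes of both cell types were counted in every library. The lowest count of a neuron gene in any library was 16 (Phox2a) and that of a glia gene 62 (Gfra3). Levels were compared between genes as CPM divided by exon length in kilobases (RPKM, mean of each treatment). Uchl1, a ubiquitin hydrolase abundant in neurons, had the highest RPKM of the neuron genes, 20.02 in naïve and 31.6 in CIA mice. Prph, an intermediate filament of peripheral neurons, stood at 18.6 and 29.4, and Scg2, a granin of secretory vesicles, at 18.4 and 25.8. In naïve mice the lowest mean RPKM of the neuron genes belonged to Ina, another neuronal filament, with 0.93 (1.38 in CIA mice). Elavl3, an RNA-binding protein of neurons, lay beside it with 0.93 (1.37 in CIA mice). In CIA mice the neurofilament gene Nefm was lowest at 1.29 (0.95 in naïve mice). Of the glia genes, Erbb3, a neuregulin receptor that gut epithelium also makes, was far above the rest at 21.3 and 18.9 RPKM. The other 5 glia genes lay between 1.302 (Gfra3, CIA) and 5.43 RPKM (S100b, CIA).

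Promoter windows of 300 bases around RefSeq gene starts (GRCm38.p6) were at hand for 21 of the 33 genes, 26 windows in all, and were searched on both strands. TTCAGCACC, the left part of the element bound by REST, a repressor of neuronal genes, occurred in 2 of the 26 windows and in 0.371% of all 32851 windows of the same length. Both are shown because they belong to a secretory and a synaptic gene whose levels are described below; the match is in capitals. The Scg2 window (chr1:79439977-79440276, minus strand) has it on the strand opposite to the gene, at base 244, and the Syn1 window (chrX:20920869-20921168, minus strand) on the gene's own strand, at base 19.
Scg2: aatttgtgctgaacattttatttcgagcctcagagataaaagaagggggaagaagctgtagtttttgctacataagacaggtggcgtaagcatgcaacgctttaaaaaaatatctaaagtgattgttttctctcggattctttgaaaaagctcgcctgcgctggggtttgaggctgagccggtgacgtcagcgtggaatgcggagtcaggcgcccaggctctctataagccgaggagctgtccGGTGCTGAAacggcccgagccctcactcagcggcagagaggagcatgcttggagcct
Syn1: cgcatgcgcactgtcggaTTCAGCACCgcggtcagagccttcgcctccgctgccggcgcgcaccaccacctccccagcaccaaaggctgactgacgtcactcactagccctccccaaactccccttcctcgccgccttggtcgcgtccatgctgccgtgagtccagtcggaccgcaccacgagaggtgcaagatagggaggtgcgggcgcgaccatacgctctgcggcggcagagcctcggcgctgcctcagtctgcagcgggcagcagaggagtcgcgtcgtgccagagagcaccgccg
The right part of the REST element occurred in 0 of the 26 windows and in 0.137% of all windows. ACAAAG, a sequence that SOX factors bind, occurred in 3 of the 26 windows (Scg3, Stmn3 and Syt1) and in 18.7% of all. The E-box CACGTG bound by clock factors (7.15% of all windows), the D-box TTATGTAA or TTACGTAA (1.06%) and a homeodomain palindrome (0.487%) occurred in 0 of the 26. No searched motif contains another. A match is a string of letters, not a binding site.

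Enteric neuron genes were higher in the colon of CIA mice. Over the day, 26 of 27 neuron genes passed the test as higher and 0 as lower (edgeR quasi-likelihood F test, Benjamini-Hochberg adjusted p under 0.05), when 17.6% of all genes tested were higher and 20.4% lower. The median log2 fold change was 0.57 over the neuron genes, or 1.49-fold, and −0.025 over all genes. Thy1 failed the test, and each of the other 26 had a positive difference at 5 or 6 of the 6 time points.

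Of the cytoskeletal genes, Prph ranged from 11.4 to 50.6 CPM in naïve mice, with a median of 39.5, and from 33.7 to 106 CPM in CIA mice, with a median of 57.8. The ranges overlapped, and 27 of 30 CIA libraries lay above the naïve median. Its log2 fold change was 0.66 (SE 0.1, edgeR adjusted p = 1.79e-06). Map1b, a microtubule-associated protein of axons, spanned 17.5 to 66.2 CPM (median 50.9) in naïve and 37.1 to 115 CPM (median 74.8) in CIA libraries, a log2 fold change of 0.57 (SE 0.0898, edgeR adjusted p = 2.28e-06). The other cytoskeletal genes rose as well, by log2 fold changes of 0.48 and 0.44 for the neurofilament subunits Nefl and Nefm, 0.57 for Ina and 0.54 for the tubulin Tubb3. The microtubule regulators Stmn2 and Stmn3 and the growth cone protein Gap43 rose by 0.53, 0.58 and 0.55.

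All 7 synaptic genes rose. Nlgn2, a postsynaptic adhesion protein of inhibitory synapses, had the smallest SE of them, with 25.7 to 50.04 CPM in naïve libraries (median 37.4) and 34.2 to 68.4 CPM in CIA libraries (median 45.8). Its log2 fold change was 0.38 (SE 0.06702, edgeR adjusted p = 1.27e-05). The vesicle fusion genes Snap25 and Syt1 changed by 0.63 and 0.66 on the log2 scale, the vesicle proteins Syp and Syn1 by 0.46 and 0.58, and the fusion regulator Cplx1 by 0.58. Syn2, another synapsin, had the smallest rise of the 7, 0.35 (SE 0.11, edgeR adjusted p = 0.00781), from a median of 13.3 to 17.8 CPM.

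Both granin genes of secretory vesicles were higher. Scg2, whose promoter window is printed above, spanned 7.39 to 68.9 CPM in naïve (median 49.1) and 24.4 to 120.0 CPM in CIA libraries (median 63.1), a log2 fold change of 0.49 (SE 0.13, edgeR adjusted p = 0.00179). Scg3 went from a median of 16.5 CPM (4.38 to 28.6) to 23.9 CPM (11.2 to 44.5), a log2 fold change of 0.6 (SE 0.13, edgeR adjusted p = 2.68e-04).

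The largest rise of the set was that of Snhg11, a long noncoding RNA abundant in neurons. It spanned 10.8 to 78.8 CPM in naïve (median 48.3) and 49.96 to 172 CPM in CIA libraries (median 85.5). All 30 CIA libraries lay above the naïve median. The log2 fold change was 0.83 (SE 0.12, edgeR adjusted p = 3.21e-07). The RNA-binding protein genes Elavl4 and Elavl3, which encode HuD and HuC, rose by 0.69 and 0.57 on the log2 scale.

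Of the genes of enteric neuron identity, Hand2, a transcription factor of enteric neuron differentiation that gut mesenchyme also makes, rose most. It spanned 10.3 to 46.4 CPM in naïve (median 30.7) and 22.1 to 85.2 CPM in CIA libraries (median 48.9), a log2 fold change of 0.75 (SE 0.11, edgeR adjusted p = 5.67e-07). Uchl1 went from a median of 33.1 CPM (9.07 to 50.2) to 51.6 CPM (25.8 to 96.2), a log2 fold change of 0.66 (SE 0.11, edgeR adjusted p = 6.01e-06). Phox2a, a transcription factor of autonomic neurons, and Ret, the receptor kinase for GDNF, rose by 0.64 and 0.53.

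Of both cell surface genes, Ncam1 alone passed. Ncam1, an adhesion molecule of neurons and glia, rose from a median of 28.8 CPM (19.5 to 35.5) to 37.99 CPM (22.7 to 59.99), a log2 fold change of 0.4 (SE 0.0665, edgeR adjusted p = 6.58e-06). Thy1, which T cells and stromal cells also carry, had a median of 22.1 CPM (14.04 to 33.6) in naïve and 23.8 CPM (14.2 to 42.3) in CIA libraries, which overlapped almost fully. Its log2 fold change was 0.098 (SE 0.0789, edgeR adjusted p = 0.334), with 19 of 30 CIA libraries above the naïve median. Whether the 2 genes differ in their response was not tested.

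The 6 genes listed as glia did not all move the same way. Over the 60 libraries Gfra3 and Erbb3 had r of −0.27 and −0.26 with the mean of the neuron genes. For Sox10, S100b, Gfap and Gfra2 it was 0.89, 0.84, 0.68 and 0.74. Whether glia were the main source of Gfra3 and Erbb3 in this tissue was not tested. Sox10, S100b, Gfap and Gfra2 were higher in CIA mice, Gfra3 was lower and Erbb3 did not pass; the median log2 fold change of the 6 was 0.42. Sox10, the transcription factor of glia, spanned 3.07 to 13.1 CPM in naïve (median 8.23) and 6.59 to 20.1 CPM in CIA libraries (median 11.5), a log2 fold change of 0.62 (SE 0.11, edgeR adjusted p = 9.89e-06). S100b, a calcium-binding protein of glia, spanned 2.698 to 9.29 CPM (median 5.49) and 4.06 to 13.6 CPM (median 7.62), a log2 fold change of 0.55 (SE 0.11, edgeR adjusted p = 7.99e-05). Both rises lay within the range of the neuron genes.

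Gfap, the intermediate filament of glia, had the largest SE of the 33 genes. It spanned 2.87 to 15.7 CPM in naïve (median 6.397) and 3.705 to 24.3 CPM in CIA libraries (median 11.2), a log2 fold change of 0.55 (SE 0.18, edgeR adjusted p = 0.0154). Gfra2, the coreceptor for neurturin, which gut neurons make as well, went from a median of 16.3 CPM (7.27 to 20.9) to 19.6 CPM (8.54 to 28.1), a log2 fold change of 0.3 (SE 0.0848, edgeR adjusted p = 0.00368). Gfra3, the coreceptor for artemin, went the other way, from a median of 2.98 CPM (1.53 to 4.61) to 2.51 CPM (1.52 to 4.18). Its log2 fold change was −0.24 (SE 0.0934, edgeR adjusted p = 0.0397), 7 of 30 CIA libraries were above the naïve median, and the call was lost in 20 of 60 analyses that omitted a library, with Naive ZT4 replicate 4 mattering most (adjusted p = 0.105, edgeR). Erbb3 had a median of 119 CPM (61.9 to 265) in naïve and 114 CPM (73.02 to 172) in CIA libraries, a log2 fold change of −0.17 (SE 0.1, edgeR adjusted p = 0.1904).

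**Figure D1:**
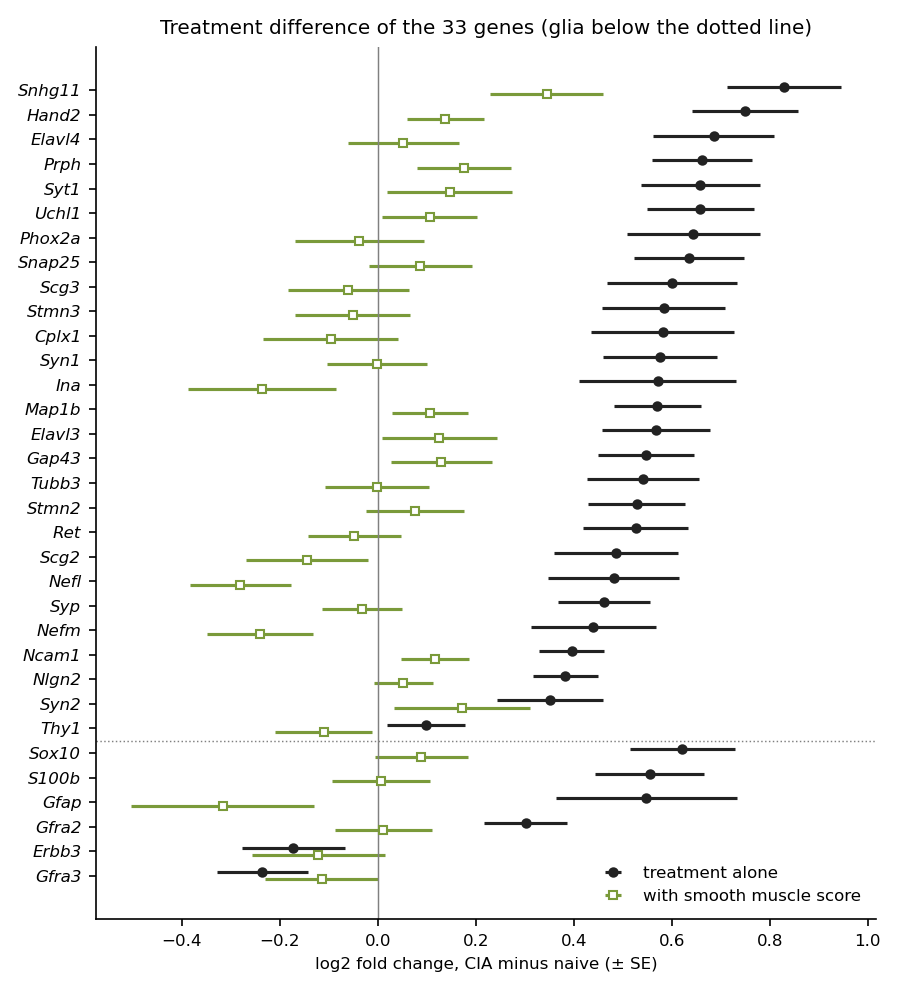
Log2 fold change of CIA over naïve mice for the 27 neuron genes and 6 glia genes, with SE bars, from the test of treatment alone and with the smooth muscle score in the model, n = 30 libraries per treatment. With treatment alone the largest value is 0.83 for Snhg11; with the score the medians are 0.052 for neurons and −0.053 for glia.

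At single time points most of these genes passed the test at ZT20 and few or none elsewhere. At ZT20 23 neuron genes and 2 glia genes (Sox10 and S100b) were higher and 0 lower, when 6.14% of all genes were higher and 6.88% lower. Nefl, Nefm, Syn2 and Thy1 were the neuron genes that did not pass there. At ZT4 Snhg11 alone was higher and 0 were lower (0.216% and 0.642% of all genes). None of the 33 passed in either direction at ZT0 (0.0111% higher and 0.0111% lower), ZT8 (0% and 0.0332%), ZT12 (2.86% and 6.42%) or ZT16 (0% and 0.00554%). The median log2 fold change of the neuron genes was 0.7 at ZT0, 0.81 at ZT4, 0.42 at ZT8, 0.33 at ZT12, 0.23 at ZT16 and 0.95 at ZT20. A dependence on the hour was not shown: in edgeR's test of the interaction of treatment and time 0 of the 33 genes and 0% of all genes passed, with 0 of the 33 and 817 of all genes at an unadjusted p under 0.05.

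At ZT20 Snhg11 stood at 29.8, 31.03, 34.8, 45.1 and 52.3 CPM in the 5 naïve libraries and at 56.9, 69.1, 91.9, 98.6 and 127 CPM in the 5 CIA libraries. The groups did not overlap, and the log2 fold change was 1.2 (edgeR adjusted p = 0.00884). At ZT16 it stood at 45.5, 45.99, 49.1, 59.4 and 71.6 CPM in naïve and at 62.4, 67.1, 83.6, 88.3 and 90.8 CPM in CIA libraries. There the groups overlapped, and the log2 fold change was 0.53 (edgeR adjusted p = 0.489). The count of 25 genes at ZT20 became 12 without Naive ZT20 replicate 5, 13 without CIA ZT20 replicate 3, 15 without CIA ZT20 replicate 4 and 16 without Naive ZT20 replicate 4. At ZT4 the count rose to 21 without CIA ZT4 replicate 4 and to 19 without Naive ZT4 replicate 4, moved in 21 of the 60 analyses that omitted a library, and in the rest of these lay between 0 and 5; at ZT0 it rose to 9 without CIA ZT0 replicate 3, and at ZT12 to 1 without Naive ZT4 replicate 1.

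**Figure D2:**
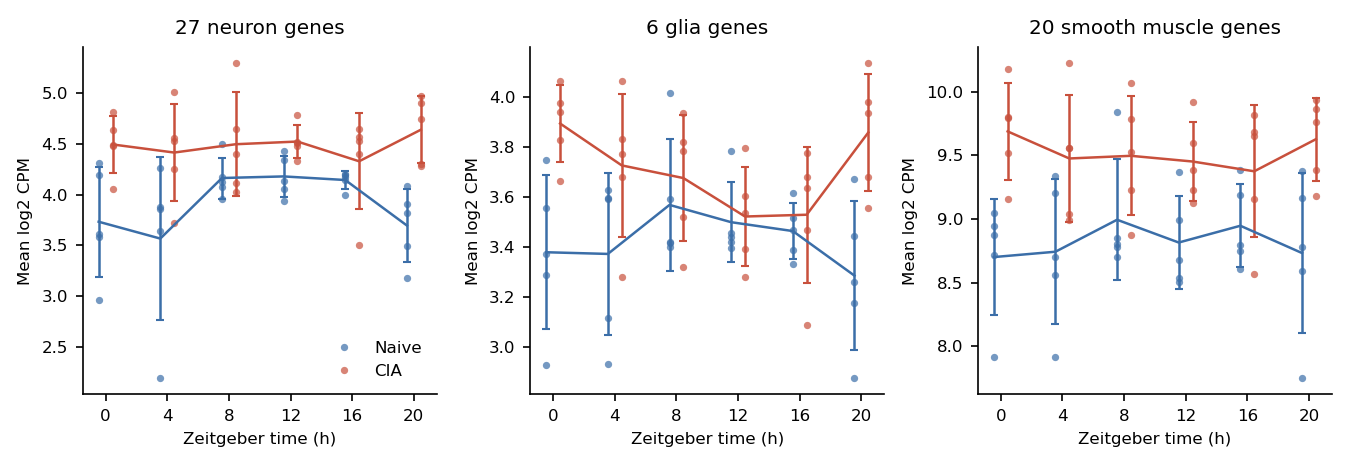
Mean log2 CPM of the 27 neuron genes, the 6 glia genes and the 20 smooth muscle genes by zeitgeber time, 1 point per library, with lines through group means and SD bars (n = 5). Neuron means in naïve mice lie between 3.57 (ZT4) and 4.18 (ZT12) and in CIA mice between 4.33 (ZT16) and 4.64 (ZT20).

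The neuron genes and most glia genes followed the smooth muscle genes from library to library. Within naïve mice the median Pearson r with the smooth muscle score was 0.69 over the neuron genes, from 0.19 for Thy1 to 0.82 for Hand2, and 0.54 over the glia genes. Within CIA mice it was 0.83 over the neuron genes, from 0.29 for Syn2 to 0.92 for Nefl, and 0.72 over the glia genes. A permutation test with 100000 resamples was run for each of these 66 relations (n = 30 libraries each), and adjusted values are over the 66. Hand2 had r = 0.82 and rho = 0.75 in naïve and r = 0.89 and rho = 0.89 in CIA mice (permutation p = 1e-05 each, the smallest the resamples can give, adjusted p = 2.06e-05 for r and 2.87e-05 for rho). Without the 2 libraries farthest from the median score its r was 0.77 and 0.84. Syn2 had r = 0.32 and rho = 0.03804 in naïve mice (permutation p = 0.0918 and 0.841, adjusted p = 0.0993 and 0.854), and 0.19 for r without the 2 farthest libraries. Gfra3 ran against the score in CIA mice, with r = −0.4 and rho = −0.4 (permutation adjusted p = 0.0313 and 0.0336), and r = −0.34 without the 2 farthest.

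With treatment held in the model, the slope on the score was positive and passed the edgeR test in 26 neuron genes and 4 glia genes, and was negative and passed in 0 of the 33, when 18.5% of all genes rose and 22% fell with the score. The median slope was 0.79 log2 units per unit of score in neurons and 0.58 in glia, and −0.041 over all genes. Gfap had the steepest slope, 1.22 (SE 0.17), followed by Ina at 1.18 and Nefl at 1.09. The genes that did not pass were Syn2 (0.26, edgeR adjusted p = 0.107), Gfra3 (−0.18, adjusted p = 0.167) and Erbb3 (−0.075, adjusted p = 0.665). Syn2 passed without CIA ZT8 replicate 4 (edgeR adjusted p = 0.0382) and among genes of at least 5 CPM on average (0.0397).

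Once the score was in the model, 0 of the 33 genes passed the test of treatment in edgeR, when 2.49% of all genes were higher and 2.45% lower; 3 of the 33 had an unadjusted p under 0.05, and DESeq2 called 1. For 33 genes 0 is near the share of all genes. With the score the median log2 fold change was 0.052 in neurons and −0.053 in glia. Snhg11 kept the largest value, 0.34 (SE 0.12, edgeR adjusted p = 0.0633). It passed with DESeq2 (adjusted p = 0.0466), with time as a term (0.0262, edgeR), with a score from 6 muscle genes (0.0243, edgeR) and in 5 of 60 analyses that omitted a library, namely without CIA ZT0 replicate 3, CIA ZT4 replicate 4, CIA ZT8 replicate 1, Naive ZT12 replicate 1 or Naive ZT4 replicate 1 (for the last, adjusted p = 0.0196, edgeR). Nefl stood at −0.28 (SE 0.1, edgeR adjusted p = 0.09103) and passed as lower without Naive ZT4 replicate 3 (0.0321) or Naive ZT8 replicate 2 (0.048). Nefm stood at −0.24 (edgeR adjusted p = 0.178). The score itself differed between treatments, so that a difference in step with muscle is removed with it.

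**Figure D3:**
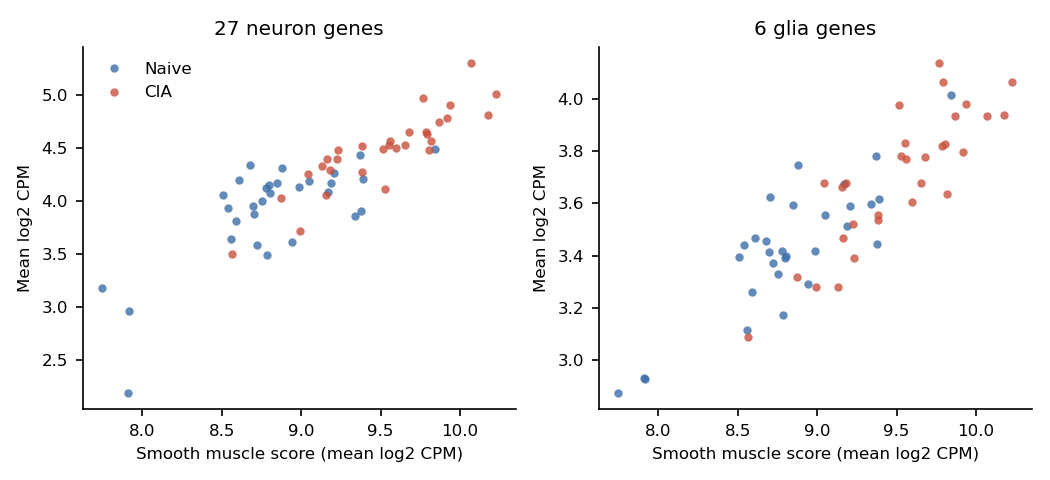
Mean log2 CPM of the 27 neuron genes and of the 6 glia genes against the smooth muscle score, 1 point per library, for 30 naïve and 30 CIA libraries. The lowest neuron mean, 2.19 in Naive ZT4 replicate 1, lies at a score of 7.91, and the highest, 5.302 in CIA ZT8 replicate 5, at 10.1.

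In naïve mice, group means of most neuron genes stood highest around lights off. Group means at ZT8, ZT12 and ZT16 were all above those at ZT20, ZT0 and ZT4 in 24 of 27 neuron genes and 2 of 6 glia genes. The share of all genes with this order was not counted. The neuron genes also varied together (median r of pairs 0.86), so they do not count as separate observations. The fitted 24 h curve peaked between ZT10 and ZT14 in 24 of 27 neuron genes, against 2683 of all 18057 genes, whether or not the rhythm passed the test. Its median amplitude was 0.35 log2 CPM in naïve and 0.0721 in CIA mice, and the naïve amplitude was the larger in 26 of 27. Over all genes the medians were 0.18 and 0.15, and the naïve amplitude was the larger in 10304 of 18057. By the edgeR test 8 neuron genes (Stmn2, Stmn3, Snap25, Syt1, Syn2, Snhg11, Uchl1 and Ncam1) and 3 glia genes (Sox10, S100b and Erbb3) were rhythmic in naïve mice, when 35.4% of all genes were. In CIA mice 0 neuron and 2 glia genes (Gfap and Erbb3) were rhythmic, when 29.6% of all genes were. The count of 11 in naïve mice, near the share of all genes, was 18 by limma, 22 without the 2 libraries that held skeletal muscle transcripts (Naive ZT0 replicate 5 and CIA ZT12 replicate 2) and 4 without the 2 naïve libraries of highest interferon score (Naive ZT4 replicate 5 and Naive ZT12 replicate 3). With 1 library omitted, the call was lost for Snap25 in 17 and for Uchl1 in 16 of 60 analyses, both with the highest p without Naive ZT0 replicate 4. It was also lost for Stmn2 and Stmn3 without that library, for Sox10 without Naive ZT12 replicate 3 and for Syn2 without Naive ZT8 replicate 5.

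A loss of rhythm in CIA mice was not shown by a test for any of the 33. The difference in rhythm passed in 0 of them in edgeR and in limma, with 3 (Stmn3, Sox10 and S100b) and 10 at an unadjusted p under 0.05, a threshold that 1176 and 1216 of all 18057 genes met, when 0.0222% of all genes passed in edgeR. In a selection among 5 models by Schwarz weight (at least 0.6), which is no test, 13 neuron genes and 2 glia genes (Sox10 and S100b) took the class of a rhythm in naïve mice alone, when 4.65% of all genes did. The 13 neuron genes were Prph, Tubb3, Stmn2, Stmn3, Snap25, Syt1, Syp, Scg2, Scg3, Elavl4, Snhg11, Uchl1 and Ncam1. Nefm, Map1b, Gap43, Nlgn2, Phox2a, Ret and Thy1 were arrhythmic (35.7% of all genes), and Nefl, Ina, Syn1, Cplx1, Elavl3, Hand2, Gfra2 and Gfra3 reached no class (22.4%). The class of a rhythm in both treatments that differs in phase or amplitude held 0 (0.233%), which for 33 genes is near that share. Single libraries moved these counts: the class of a rhythm in naïve mice alone held 2 neuron genes without Naive ZT0 replicate 4, 6 without Naive ZT12 replicate 2, 7 without Naive ZT12 replicate 3 and 20 without Naive ZT0 replicate 5. The 11 genes rhythmic in naïve mice became 7, 18 and 22 when replicate 4, 1 or 5 of Naive ZT0 was omitted, and the 7 arrhythmic genes 13, 3 and 4, or 4 without CIA ZT16 replicate 5.

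Stmn3 had the smallest p for the difference. In naïve mice it stood at 1.37, 2.601, 4.13, 4.86 and 5.62 CPM at ZT4 and at 5.82, 6.11, 6.23, 6.67 and 7.31 CPM at ZT16, and these groups did not overlap. In CIA mice it stood at 4.25, 5.56, 6.84, 8.11 and 11.8 CPM at ZT4 and at 3.603, 6.41, 7.23, 7.44 and 9.04 CPM at ZT16, and the groups overlapped. The amplitude was 0.46 with a peak at ZT13.2 in naïve mice (edgeR adjusted p = 0.0241) and 0.1 in CIA mice (adjusted p = 0.796). The difference had an unadjusted p = 0.0246 and an adjusted p = 0.731 in edgeR. Scg3 had amplitudes of 0.44 and 0.08 in naïve and CIA mice (difference, edgeR adjusted p = 0.731).

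Sox10 and S100b had a like course. Sox10 averaged 10.02 ± 1.85 CPM at ZT12 and 6.41 ± 1.76 CPM at ZT20 in naïve mice, and 11.8 ± 2.54 and 13.3 ± 3.46 CPM in CIA mice (SD, n = 5). Its amplitude was 0.37 in naïve mice (peak ZT12.8, edgeR adjusted p = 0.0205) and 0.045 in CIA mice (adjusted p = 0.904). That of S100b was 0.38 (peak ZT11.5, edgeR adjusted p = 0.0165) and 0.027 (adjusted p = 0.967). Of the neuron genes Ncam1 and Syt1 had the smallest p in naïve mice, with amplitudes of 0.22 (peak ZT10.7, edgeR adjusted p = 0.0181) and 0.45 (peak ZT11.6, adjusted p = 0.0191).

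Gfap and Erbb3 kept other hours. Gfap was rhythmic in CIA mice, where its amplitude was 0.75 and its peak at ZT22.6 (edgeR adjusted p = 0.00263), while its naïve amplitude was 0.21 (adjusted p = 0.426). In CIA mice it stood at 14.2, 14.5, 14.99, 18.1 and 24.3 CPM at ZT0 and at 3.77, 4.19, 6.503, 6.51 and 11.8 CPM at ZT12, and these groups did not overlap. In naïve mice the same hours gave 3.46, 5.65, 11.1, 13.6 and 14.3 CPM and 5.4, 5.73, 5.88, 6.36 and 9.82 CPM, and the groups overlapped. Gfap was the single gene of the 33 in the class of a rhythm in CIA mice alone (2.4% of all genes), which held 0 of them without Naive ZT20 replicate 5 and 2 without CIA ZT8 replicate 5. The difference in its rhythm did not pass (edgeR adjusted p = 0.744).

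Erbb3 was rhythmic in both treatments, with amplitudes of 0.37 and 0.42 and peaks at ZT5.95 and ZT5.55 in naïve and CIA mice (edgeR adjusted p = 8.38e-04 and 2.15e-04). It averaged 174 ± 51.4 CPM at ZT8 and 92.9 ± 23.5 CPM at ZT20 in naïve mice, and 137 ± 19.6 and 79.8 ± 6.27 CPM in CIA mice (SD, n = 5). Erbb3 and Syn2 made up the class of a shared rhythm, which held 34.7% of all genes. Syn2 peaked at ZT8.63 in naïve and ZT8.13 in CIA mice, with amplitudes of 0.3 (edgeR adjusted p = 0.0211) and 0.22 (adjusted p = 0.139). The naïve peaks of the other synaptic genes lay between ZT11.6 (Syt1) and ZT14.7 (Nlgn2).

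**Figure D4:**
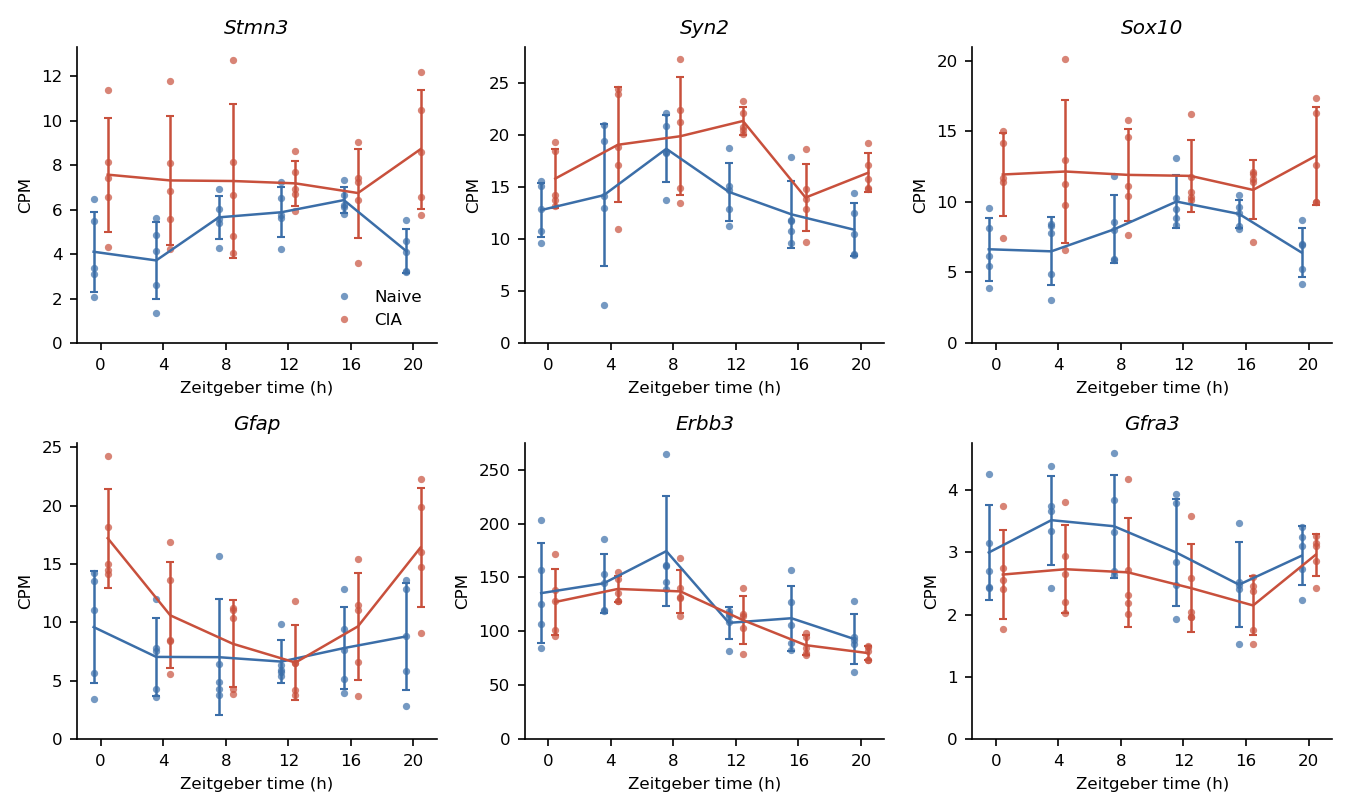
CPM of Stmn3, Syn2, Sox10, Gfap, Erbb3 and Gfra3 by zeitgeber time, 1 point per library, with lines through group means and SD bars (n = 5). Gfap in CIA mice falls from a mean of 17.2 CPM at ZT0 to 6.55 CPM at ZT12, and Erbb3 is lower at ZT20 than at ZT8 in both treatments.

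**Figure D5:**
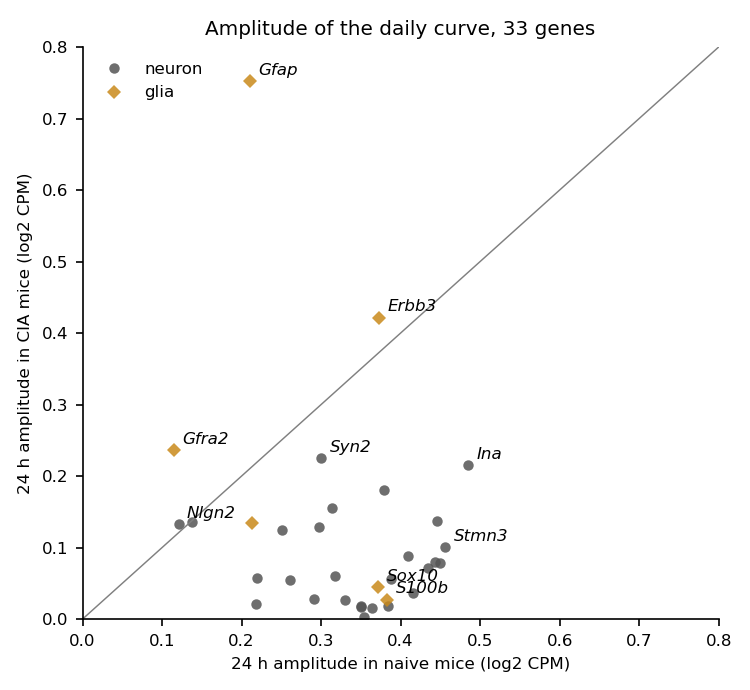
Amplitude of the fitted 24 h curve in log2 CPM in naïve and CIA mice for the 27 neuron genes and 6 glia genes, with the line of equal amplitude. The naïve amplitude is the larger in 26 of 27 neuron genes, and Gfap lies on the other side at 0.21 and 0.75.

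The muscle score had a small daily curve of its own, with an amplitude of 0.12 in each treatment and peaks at ZT11.5 in naïve and ZT23.7 in CIA mice. With the score in the model, 19 neuron and 4 glia genes were rhythmic in naïve mice (41.5% of all genes) by the edgeR test. In CIA mice 1 neuron gene (Hand2) and 2 glia genes were (34.1%), or 5 genes in all without CIA ZT8 replicate 1. The median amplitude of the neuron genes was 0.27 in naïve and 0.097 in CIA mice. Of the neuron genes 11 took the class of a rhythm in naïve mice alone (4.54% of all genes), and 5 that of a shared rhythm (40.4%): Tubb3, Syn2, Snhg11, Hand2 and Ncam1. Gfap then took the class of a shared rhythm, with amplitudes of 0.33 and 0.62, and 0 of the 33 that of a rhythm in CIA mice alone (1.98%). Phox2a and Thy1 were arrhythmic (31.6%), or 4 genes without Naive ZT12 replicate 2, and 11 genes reached no class (21.2%). The class of a rhythm in both treatments that differs in phase or amplitude held 0 of the 33 (0.299%), near that share. The difference in rhythm passed in 0 of the 33 with edgeR, with 2 at an unadjusted p under 0.05, when 0.0277% of all genes passed.

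Neuron genes varied together. Over the 60 libraries, which share treatment, hour and depth, the 351 pairs of neuron genes had a median r of 0.86, and of 0.67 after the muscle score was taken out. Sox10 and S100b had a median r of 0.8 with the neuron genes, and of 0.48 without the score. Syn2 (r = 0.57 with the mean of the other neuron genes) and Thy1 (0.57) were the least alike, and Gfra3 (−0.27) and Erbb3 (−0.26) ran against the neurons. Thy1 had r = −0.76 with the epithelium score. Of 14808 genes outside the set, those closest to the mean neuron profile were Rtn1, Kif5a, Rab6b, Zcchc12 and Chrna3, each with r = 0.98, and the muscle actin gene Acta2 ranked 441 with r = 0.85. Closest to the glia profile were Fibin (0.89), and Tgfb1i1, Adcyap1r1, Dner and Susd2 (0.88 each), and Acta2 ranked 30 with r = 0.85. That profile averaged all the glia genes, including Gfra3 and Erbb3, which ran against the neurons.

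Further genes of the enteric nervous system were mostly higher too. They were listed with earlier results of these data known and include Rtn1 and Chrna3, named above, so they are no independent support. Of 37 other neuron genes 34 were higher and 0 lower, when 17.6% of all genes were higher and 20.4% lower. Their median log2 fold change was 0.49. Mapt (0.49), Gng3 (0.66) and Pcsk1n (0.48) were among those with the smallest adjusted p. Of 17 other glia genes 12 were higher and 2 lower. With the smooth muscle score in the model 0 of the 37 and 0 of the 17 passed the edgeR test, at medians of 0.083 and −0.0063. Of all genes 2.49% were then higher and 2.45% lower, and for lists of this size 0 is near that share. By treatment alone, the potassium channel gene Kcna1 (0.72), the neurotrophin receptor gene Ngfr (0.5), Lgi4 (0.53) and Cryab (0.58) had the smallest adjusted p among the other glia genes. The myelin genes Mbp (−0.18, edgeR adjusted p = 5.27e-04) and Cnp (−0.19, adjusted p = 0.00382) were lower. The amplitude of Kcna1 was 0.2 in naïve mice, against 0.61 in CIA mice with a peak at ZT21.8 (edgeR adjusted p = 3.21e-05), near the hour of Gfap. Most of the list went the other way. The naïve amplitude was the larger in 12 of the 17, at medians of 0.42 in naïve and 0.21 in CIA mice. By the edgeR test 11 were rhythmic in naïve and 5 in CIA mice, when 35.4% and 29.6% of all genes were. The difference in rhythm passed in 0 of the 17, when 0.0222% of all genes passed.

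Of 15 tested ligands and receptors of the GDNF, neuregulin, endothelin and neurotrophin pathways, which sustain enteric neurons and glia, 7 were higher and 0 lower. Of all genes 17.6% were higher and 20.4% lower. Gdnf, a ligand of the Ret receptor complex, averaged 7.27 ± 3.195 CPM in naïve libraries and 11.1 ± 4.56 CPM in those of CIA mice (SD, n = 30), a log2 fold change of 0.61 (SE 0.16, edgeR adjusted p = 0.00168). The Ret coreceptors Gfra4 and Gfra1 rose by 0.88 and 0.6 on the log2 scale and the ligand Nrtn by 0.47. Artn, the ligand of Gfra3, had a log2 fold change of 0.36. Gfra3 itself was lower, a call lost in 20 of 60 analyses that omitted a library. With the smooth muscle score in the model its log2 fold change was −0.11 (edgeR adjusted p = 0.595). With the smooth muscle score in the model 0 of the 15 passed the edgeR test, when 2.49% of all genes were higher and 2.45% lower. For 15 genes 0 is near that share. The log2 fold changes of Gdnf, Gfra4, Gfra1 and Nrtn with the score were −0.14, 0.43, −0.061 and 0.18. Nrg1 and Erbb2, a ligand and a partner of Erbb3, had log2 fold changes of −0.28 (edgeR adjusted p = 0.139) and 0.033 (adjusted p = 0.755).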

How the data were processed

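Whole mid-colon RNA of 60 mice was sequenced as paired ends from a stranded poly(A) kit. The authors trimmed reads with Trimmomatic 0.36, aligned them with STAR 2.5.3 to GRCm38 and counted them with Rsubread; the deposited table holds raw counts per Entrez gene for every library, and the counting settings are not given in the sources used here. Of counts from 1 to 20, 73.95% were even, against 50.5% above 1000, so halved counts were an alternative. Gene symbols came from RefSeq, and 1904 identifiers had none; exon lengths came from GENCODE M21.

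Groups came from the sample titles. Counts were scaled by TMM in edgeR 4.0.16, filtered (minimum count 10, minimum total 15) to 18057 genes, and tested by quasi-likelihood F tests adjusted over all genes: treatment (30 libraries each), treatment at each time point, treatment with the smooth muscle score, and 24 h cosine terms. Rhythm classes came from 5 linear models of log2 CPM (prior count 2). limma 3.58.1 and DESeq2 1.42.0 gave alternatives. Scripts were tested on simulated data. P-values measure the spread between libraries, taken as 1 mouse each. Members and gene lists were chosen with earlier results of these data known. Text genes followed a rule: all 33, and in full those with the highest level or smallest adjusted p of each role, every glia gene, every gene that did not pass and those leading in rhythm; other lists gave up to 4 genes, and some of their genes are not reported here.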

Additional observations from a re-analysis of the deposited data

Results flagged for a closer look

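Of 36 groups of 5 libraries tested for a value far from the others (neuron mean, glia mean and smooth muscle score in 12 groups), 4 had one, where chance flags about 1 in 20 groups. The neuron mean of CIA ZT16 replicate 5 was 3.5 log2 CPM, with the other 4 libraries between 4.403 and 4.65. That of Naive ZT16 replicate 3 was 3.999, with the others between 4.15 and 4.21. The glia mean of Naive ZT12 replicate 3 was 3.78, with the others between 3.397 and 3.46. The smooth muscle score of Naive ZT8 replicate 2 was 9.84, with the others between 8.699 and 8.85. Naive ZT4 replicate 1, the library with the lowest neuron mean of all, was not among them.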

How the results depend on the processing

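Of the counts and medians recomputed under the alternatives other than leaving out 1 library, 284 stayed the same and 28 moved. A count stayed the same if it kept within 1.5 times. A median did if it shifted by less than the SD between libraries (for correlations, between genes), so that a small median could change sign. Of the values of single genes, 715 kept their call, 13 lost it and 4 gained it. A change of direction, counted only with an adjusted p under 0.05 and not for amplitudes, occurred in 0. Median of ratios scaling moved the median of all genes from −0.025 to −0.014. The fall of Gfra3 was lost (0 glia genes lower) with that scaling (adjusted p = 0.0503), with no filter (0.0596), without the 2 libraries with skeletal muscle transcripts (0.0518, all edgeR), and with a minimum mean of 5 CPM, which leaves the gene untested. With the muscle score, 1 gene was higher by DESeq2, with a score from 6 genes and with time as a term. At ZT4, 3 genes were called with halved counts and 0 with no filter, with the replicate block or in separate fits, and separate fits called 7 at ZT12.

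Rhythm counts moved as well. Genes rhythmic in naïve mice numbered 18 by limma, 22 without the 2 libraries with skeletal muscle transcripts and 4 without the 2 naïve libraries of highest interferon score. Neurons with a rhythm in naïve mice alone numbered 20 by Akaike weight, 3 at a Schwarz weight of at least 0.8, 20 without the skeletal muscle pair and 6 without the interferon pair, which left 1 glia gene in this class. Arrhythmic genes numbered 0 by Akaike weight, 2 at 0.8 and 4 without the skeletal muscle pair, and genes of shared rhythm 1 at 0.8. With the muscle score, genes of shared rhythm numbered 4 and neurons with a rhythm in naïve mice alone 7 at 0.8, and arrhythmic genes 0 by Akaike weight and 1 at a minimum mean of 5 CPM. The cause was not tested, except that fewer libraries or genes enter some of these fits.

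Over the runs without 1 library, neuron genes higher numbered 26 and glia genes higher 4 in all 60, and the median log2 fold change of neurons lay between 0.53 and 0.61. Genes of the set called ranged from 0 to 9 at ZT0, 0 to 21 at ZT4, 0 to 1 at ZT12 and 12 to 27 at ZT20. Glia genes lower ranged from 0 to 1, and genes higher or lower with the muscle score from 0 to 1 each. Genes rhythmic in naïve mice ranged from 7 to 22, and with the score genes rhythmic in CIA mice from 2 to 5 and arrhythmic genes from 2 to 4. Neurons with a rhythm in naïve mice alone ranged from 2 to 20, genes with a rhythm in CIA mice alone from 0 to 2 and arrhythmic genes from 3 to 13.

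Replicate numbers showed no pairing in expression. Same-numbered libraries of different groups had a mean correlation of deviations of 0.0028, against −0.0007 for differently numbered ones. Of 30 same-numbered pairs of CIA and naïve libraries of 1 time point 8 had a correlation over 0.1, from −0.47 to 0.45. Whether the numbers follow cages is not stated in the labels. With the replicate block 26 neuron and 4 glia genes were higher, 25 members were called at ZT20, 11 genes were rhythmic in naïve mice, and the call at ZT4 was the only count of calls it moved by over 1.5 times.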
